A study of Mus musculus with 39 samples.

Results

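The glucocorticoid receptor (GR) was found, in 7438 mouse mammary cells given both hormones, at 1187 sites that the estrogen receptor (ER) held with estradiol alone and that GR did not hold with dexamethasone alone. These sites were selected on 3 lists of called ChIP-seq sites from 7438 cells: a site of the GR list named for both hormones was taken if it overlapped, by at least 1 bp, a site of the ER list for estradiol (E2) and no site of the GR list for dexamethasone (Dex). The 1187 sites are 12.5% of the 9503 GR sites in that list and are called gained shared sites. The other 8316 sites of the list serve for comparison. They are 612 gained GR-alone sites (in neither the GR Dex nor the ER E2 list), 1142 kept shared sites (in both) and 6562 kept GR-alone sites (in the GR Dex list only).

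GR and ER are nuclear receptors that bind DNA and regulate transcription once a steroid binds them. Dex is a synthetic ligand of GR and E2 is the natural ligand of ER. Each receptor recognises its own response element, and either one can also be recruited to chromatin that another factor has opened. AP-1, a family of Fos and Jun proteins, is one such factor in mammary cells. The study asked how the 2 receptors occupy the genome when their ligands are given alone or together.

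The 7438 line makes GFP-GR and Cherry-ER fusion proteins from a tetracycline-regulated promoter, so the receptors measured include induced fusion proteins. Treatment lasted 30 min, with 100 nM Dex, 100 nM E2 or 100 nM of each (Dex+E2), and untreated cells served as controls; a second line, 7438 with Afos, received the same. What Afos is the labels do not say; a protein called A-Fos acts as a dominant negative of AP-1 by blocking its binding to DNA. Site lists were used for 24 of the 39 samples: each receptor and treatment had 1 list in 7438 (8 in all) and 2 in 7438 Afos (16 in all), and together they held 110608 sites.

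Before any result, a conflict has to be stated. In 7438, the GR list whose name says both hormones is filed under a sample labelled untreated, and the list whose name says untreated is filed under the label Dex+E2. The same holds for ER. The sites were chosen by list name. By name, the list for both hormones held 9503 GR sites and 11982 ER sites, and the untreated list held 143 and 373. In 7438 Afos, where names and labels match, the untreated GR lists held 95 and 315 sites and the Dex+E2 GR lists held 14160 and 10309. With the lists read by label, the same rule finds 2 sites, so everything below holds for the reading by name. The ER Dex list of 7438 also stands apart: it held 10149 sites, of which 0.877% overlapped an ER E2 site, while the ER Dex lists of 7438 Afos held 61 and 41.

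The lists give no read totals, so the sequencing depth behind a call is unknown. A site missing from a list was not called there, which does not show that the receptor was absent. All 7438 sites were 150 bp wide with a tag density of at least 10, while those of 7438 Afos spanned 251 bp or more and had lower limits, so densities were ranked only within their own list. A rank is the percentile of the site's highest tag density in its list, 100 being the strongest site. Intervals for shares are exact binomial 95% intervals over sites, cover counting error only and treat sites as independent. Nothing in the labels says that replicates came from separate cultures, so p-values measure only the spread between these lists.

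At the gained shared sites ER was strong and GR was weak. The median ER rank in the E2 list was 83.5 (interval of the median 81.8 to 84.7), and the median GR rank in the list for both hormones was 38.7 (36.8 to 40.9). In tag density these medians were 34.9 for ER and 15.6 for GR, each on the scale of its own list. Both lists were used to choose the sites, so the ranks are a description without a test. At kept shared sites the order was the other way round, with a median of 54.8 for ER and 72.0 for GR. Gained GR-alone sites had the lowest GR, with a median rank of 20.2, and kept GR-alone sites had a median of 51.7.

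The gained shared sites took a large part of the strongest ER binding in these cells. Of the 1428 ER E2 sites in the strongest 20%, 657 (46.0%) carried one, against 73 of the 1419 ER sites (5.14%) in the weakest 20%. In the strongest 5% the share was 244 of 357 ER sites (68.4%), and it was 7 of the 10 strongest ER sites. Over the whole ER E2 list 1186 of 7136 sites (16.6%) carried one. For GR the picture was reversed, since 4 of the 1187 sites reached the strongest 5% of the GR list and 309 (26.0%) fell into its weakest 20%. A tag density under 12, close to the limit of 10 for a call, was found at 290 gained shared sites (24.4%), against 15.4% of kept GR sites. How far nearness to this limit set which sites were called in 1 list and not in the other was not tested.

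**Figure D1:**
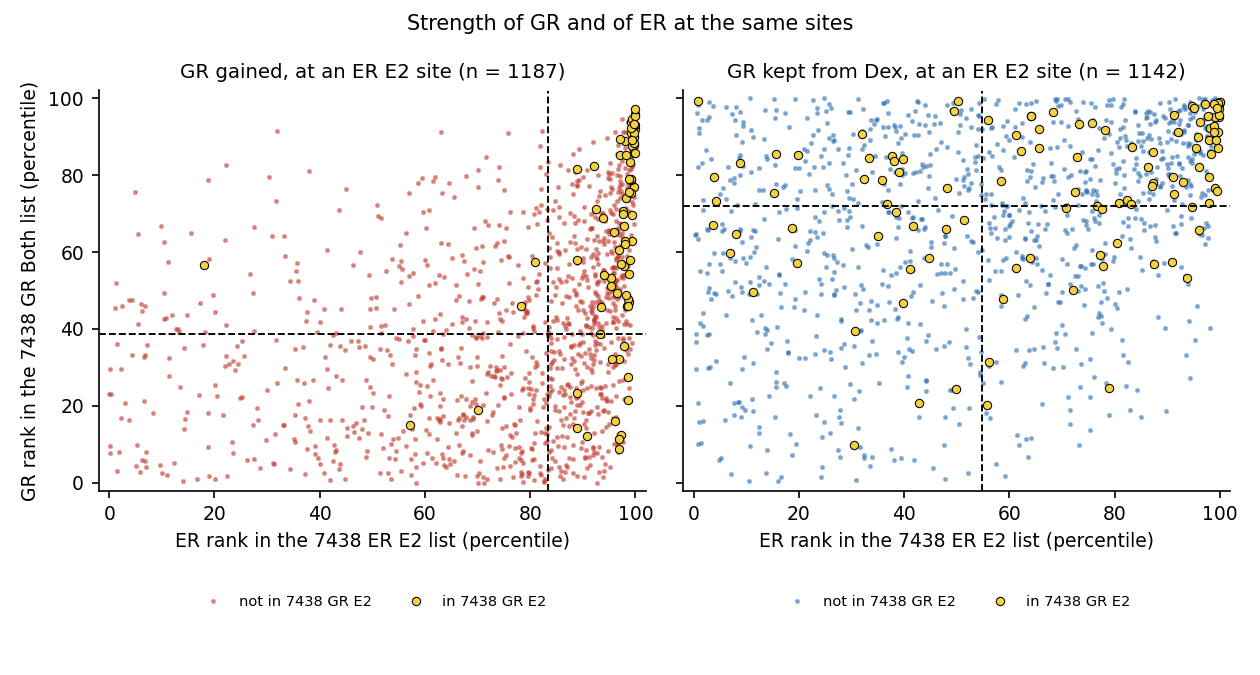
GR rank in the 7438 list named for both hormones (vertical axis, percentile) against ER rank in the 7438 ER E2 list (horizontal axis, percentile) for the 1187 gained shared sites (left) and the 1142 kept shared sites (right), 1 point a site. Dashed lines are medians, at 38.7 for GR and 83.5 for ER on the left and 72.0 and 54.8 on the right, and filled yellow points are sites that the 7438 GR E2 list also held (78 on the left, 113 on the right).

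Within the gained shared sites GR tended to be stronger where ER was stronger. Spearman's rho between the GR rank and the ER rank was 0.42 with the ER E2 list (1187 sites) and 0.65 with the ER list for both hormones (1176 sites). For kept shared sites the same values were 0.32 (1142 sites) and 0.64 (1074 sites). These are descriptions across sites of the same libraries, and sites are not replicates.

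The strongest GR member, chr6:147073683-147073833 (build mm9, as the list gives it), is an extreme of the set and not a typical member. Its GR rank was 97.1, against a median of 38.7, and it was among the 39 members (3.29%) in all 3 GR E2 lists. In 7438 it had a GR density of 122 in the list for both hormones and 21.0 with E2, and it was not called with Dex. ER density there was 291 with E2 and 423 in the list for both hormones. In 7438 Afos its GR density was 298 and 110 in the Dex+E2 lists and 140 and 35.4 in the E2 lists, where it was the strongest site of each E2 list, and neither GR Dex list held it. ER in 7438 Afos reached 445 and 259 with E2 and 369 and 124 with Dex+E2. The site was thus called in every list with E2, for either receptor, and in none of the 3 GR Dex lists. Its nearest GR Dex site in 7438 lay 140440 bp away.

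Other leading members were mostly called in the same lists with both hormones, and some of them differed in their GR calls with E2 alone. The site chr11:50486339-50486489 had a GR density of 101.8 in the list for both hormones and was the strongest of all 326 sites in the 7438 GR E2 list, with a density of 98.4. At chr4:135977836-135977986 the GR density was 86.9 with both hormones and 90.1 with E2 alone, each in its own list. The strongest site of the whole ER E2 list, chr11:79592196-79592346, was a member too, with an ER density of 374, a GR density of 72.8 in the list for both hormones and 39.4 in the GR E2 list. A GR Dex site lay 1133 bp from it. The site chr11:120214329-120214479 was held by replicate 1 of the Afos GR Dex lists, at a density of 13.3, and by replicate 1 alone of the Afos GR E2 lists. The 7438 ER list for both hormones did not hold chr16:21828492-21828642.

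The named sites were the 8 members of highest GR rank and the 8 of highest ER rank, which are 13 sites together, 5 of highest rank in the GR E2 list and 3 of lowest GR rank. All 13 leading sites were present in both Afos GR Dex+E2 lists and in all 4 Afos ER lists with E2. Of the 13, 11 were in both Afos GR E2 lists, 7 in the 7438 GR E2 list and 1 in an Afos GR Dex list. The 6 missing from the 7438 GR E2 list were the leading sites of chromosomes 12, 14 and 16, both of chromosome 8 and chr11:120214329-120214479. The other leading GR members were chr6:66485006-66485156 (GR density 95.8), chr14:19549629-19549779 (91.0) and chr8:12592457-12592607 (82.4). The other leading ER members were chr12:56566757-56566907 (ER density 285), chr7:54364333-54364483 (264), chr8:124676077-124676227 (252) and chr1:185397233-185397383 (238). In the GR E2 list chr14:26292693-26292843 (GR density 78.0), chr1:121746677-121746827 (66.2) and chr2:25328184-25328334 (54.6) followed the 2 sites given above. By contrast, the 3 weakest GR members, chr1:134041783-134041933, chr4:46857946-46858096 and chr5:91310732-91310882, had a GR density of 10.0 and no Afos GR list from hormone-treated cells held any of them.

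With both hormones ER remained at almost every gained shared site. The 7438 ER list for both hormones, which the rule did not use, held 1176 of the 1187 sites (99.1%, interval 98.4 to 99.5%), against 47% of all 9503 GR sites. Kept shared sites were at 94.0% and gained GR-alone sites, which had no ER call with E2, at 64.7%. The members were chosen as ER E2 sites, so the contrast with all GR sites partly restates the rule. This ER list also held 84.3% of the ER E2 sites without GR in the Dex list or the list for both hormones. In the strongest 20% of ER E2 sites it held 99.85% of those with a gained shared site and 98.76% of those without GR. In the weakest 20% these shares were 93.15% and 65.87%. The median ER rank of the gained shared sites in that list was 91.0. Site by site, the ER rank was higher in the list for both hormones than in the E2 list at 948 of 1176 sites (80.6%), with a median shift of 5.20 percentile points. ER sites in neither the GR Dex list nor the GR list for both hormones of 7438 shifted by a median of 5.43 points and kept shared sites by 9.46, so a median shift of this size was seen at the other ER sites too. The ER rank rose at 64.1% of the former and 79.3% of the latter. Their median ER ranks in the E2 list were 47.4 and 57.7, against 83.6 for the gained shared sites, which had less room to rise. The ER lists compared are single lists of different length, so the shift has no replicate check.

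Without a ligand, or with Dex for ER, few of the sites were called in 7438. The untreated GR list held 2 of the 1187 (0.168%), against 1.4% of all GR sites in the list for both hormones. The ER Dex list held 2 (0.168%, against 2.1%) and the untreated ER list 7 (0.590%, against 2.23%). Kept shared sites were more often in these lists, at 6.83%, 5.60% and 137 of 1142 sites. Each share of the gained shared sites lay below that of all GR sites.

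GR was called at a small share of the sites with E2 alone, and most of those were among the sites of strong ER. In 7438 the GR E2 list held 78 of the 1187 (6.57%, interval 5.23 to 8.13%), against 2.49% of all GR sites. In 7438 Afos the E2 lists held 238 (20.1%) and 79 (6.66%), against 3.1% and 1.07%. All 79 of replicate 2 were among the 238 of replicate 1, and for both lists together the background was 1.04%. In at least 1 of these 3 lists there were 257 sites (21.7%, against 4.75% of all GR sites), and in all 3 there were 39 (3.29%, against 0.537%). Replicate 1 was 3.36 times as long as replicate 2, with 490 and 146 sites, and its share was higher in like measure.

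E2-only GR calls were rare at the other GR sites of the list, except kept shared sites. Neither Afos GR E2 list held any of the 612 gained GR-alone sites, and they held 5 and 1 of the 6562 kept GR-alone sites. Kept shared sites were at 9.90% in 7438 (113 sites), above the gained shared sites, and at 4.55% and 1.93% in 7438 Afos, below them. Of those 113, 35 were also in an untreated GR list of either cell line, against 1 of the 78 gained shared sites. Leaving out sites of the untreated lists, the 7438 shares were 7.68% and 6.51%. Put the other way, gained shared sites made up 77 of the 326 sites of the 7438 GR E2 list (23.6%) and 230 of 490 (46.9%) and 76 of 146 (52.1%) in 7438 Afos.

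Members with GR in E2 had higher ER ranks, and the ranges overlapped. The 78 members of the 7438 GR E2 list had a median ER rank of 98.2, and 74 of them were in the strongest 20% of ER sites, while the other 1109 had a median of 81.8 and 585 of them (52.8%) in that strongest class. The lowest ER rank among the 78 was 18.02. By class of ER rank, in steps of 20% from weakest to strongest, the share of members in the Afos GR E2 list of replicate 1 was 1.39%, 1.27%, 1.54%, 5.67% and 33.4%. Replicate 2 gave 0%, 0%, 0.769%, 0.405% and 11.7%, and 7438 gave 1.39%, 0%, 0.769%, 0.810% and 11.2%. In each of the 3 lists the strongest class thus held nearly all the calls. The strongest class of ER sites without GR in the list for both hormones or for Dex also had GR calls in Afos with E2, at 13.3% and 2.49%.

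**Figure D2:**
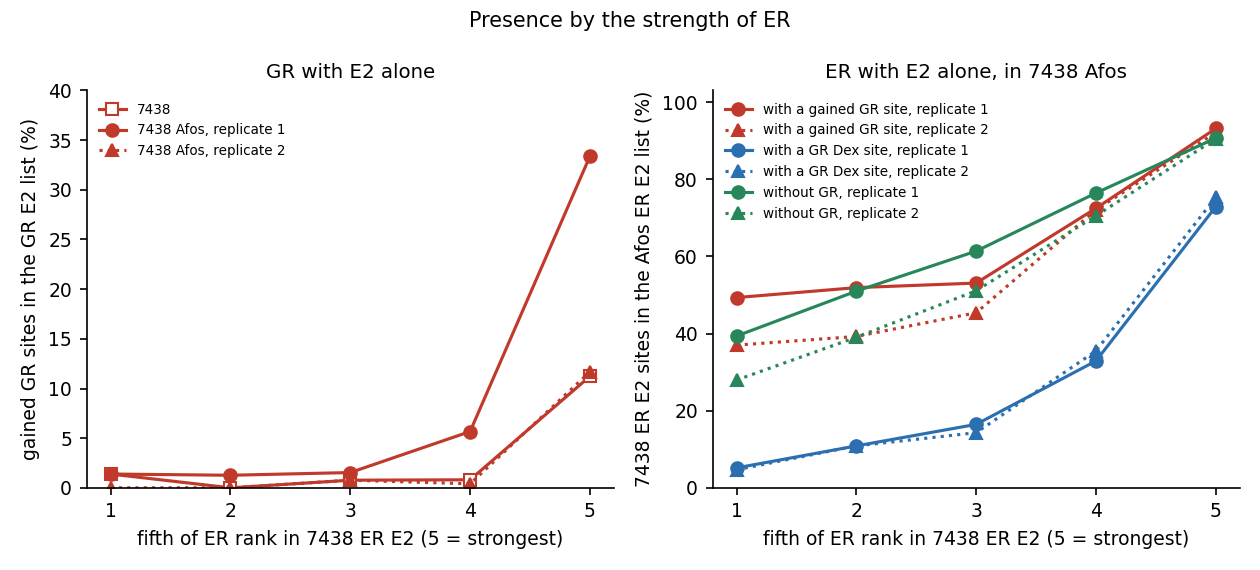
Left, the share of the 1187 gained shared sites (percent) that each GR E2 list held, by class of ER rank in the 7438 ER E2 list (5 classes, 5 the strongest), which in replicate 1 of 7438 Afos ran from 1.39% to 33.4%. Right, the share of 7438 ER E2 sites (percent) that the ER E2 lists of 7438 Afos held, for ER sites with a gained GR site, with a GR Dex site and without GR. ER sites with a GR Dex site lie lowest in every class.

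In 7438 Afos cells, whose lists the rule did not use, GR was again called at most of the gained shared sites with both hormones and at few with Dex. The Dex+E2 lists held 896 (75.5%) and 696 (58.6%) of the 1187 sites, or 67.1 ± 11.9% (SD, n = 2), against 70.7% and 72.7% of all GR sites. The Dex lists held 54 (4.55%) and 23 (1.94%), or 3.24 ± 1.85% (SD, n = 2), against 58.5% and 43.3%. The groups did not overlap, and the difference was 63.8 percentage points. A two-sided exact permutation test of 2 lists against 2 gave p = 0.333, the smallest it can give (0.444 adjusted over the 4 tests of this kind by the Benjamini-Hochberg method). With equal numbers of the strongest sites from each of the 4 lists the difference was 39.2 points. Afos sites were wider than 7438 sites, so a site beside a member could overlap it. Without the 94 members that had a 7438 GR Dex site within 500 bp, the mean share was 1.19% with Dex and 66.3% with Dex+E2.

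In both Dex+E2 lists there were 682 sites (57.5%, against 65.1% of all GR sites) and in neither 277. In both Dex lists there were 23 (1.94%, against 42.7%). With Dex+E2 the share of gained shared sites in a list was above that of all GR sites in replicate 1 and below it in replicate 2, and with Dex it was below it in both. Absence from a Dex list was also what chose the sites, in 7438. The untreated Afos GR lists held 1 and 2 of the sites (0.0842% and 0.168%), against 0.684% and 2.16%.

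The rise from Dex to Dex+E2 in 7438 Afos was larger at gained shared sites than at GR sites kept from Dex. In replicate 1 it was 70.9 percentage points at the former and 0.169 at the latter, a difference of 70.8. In replicate 2 it was 56.7 and 23.6, a difference of 33.1. The mean difference was 51.9 ± 26.7 points (SD, n = 2), with the same direction in both replicates. Absence from or presence in the 7438 GR Dex list defined these classes, so the comparison is not independent of how the sites were chosen. Gained GR-alone sites were present in the Dex+E2 lists at 66.7% and 56.4%, which is 8.82 and 2.26 points below the gained shared sites. They were present more often in the Dex lists, at 17.5% and 8.01%. Their share thus also rose from Dex to Dex+E2 in both replicates, and the rise was not particular to gained shared sites. No p was computed for these differences, because there were 2 replicates.

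**Figure D3:**
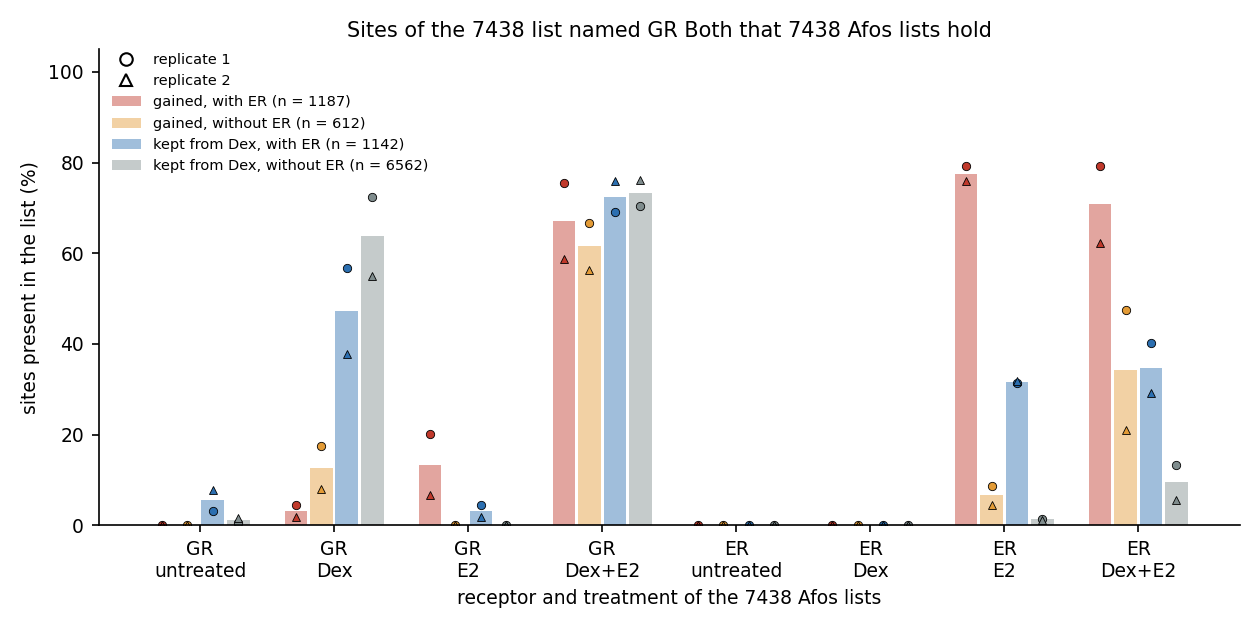
Share of the sites (percent) of 4 classes of GR sites from the 7438 list named for both hormones that each 7438 Afos list held, by receptor and treatment. Bars are means of 2 lists, circles replicate 1 and triangles replicate 2. The gained shared sites (red) are at 4.55% and 1.94% for GR with Dex, 75.5% and 58.6% for GR with Dex+E2, and 79.2% and 76.0% for ER with E2.

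Grouped by the presence of Dex alone, the Afos GR lists overlapped in their share of these sites. The 4 lists with Dex (Dex and Dex+E2) held 35.2 ± 37.5% of the sites (SD, n = 4) and the 4 without Dex 6.74 ± 9.39% (SD, n = 4). For this difference of 28.4 points a two-sided exact permutation test gave p = 0.286 (0.444 adjusted over 4 tests). The group with Dex pools 2 treatments, at 4.55% and 1.94% with Dex and 75.5% and 58.6% with Dex+E2. Its SD and this p thus include a difference between treatments and do not measure the spread between replicate lists. With equal numbers of the strongest sites from each of the 8 lists the direction turned, with a difference of -2.80 points (p = 0.171, the same exact test); each list then held 95 sites, as the shortest did. Replicate 1 of the Dex+E2 lists weighed most, and without it the difference was 14.97 points.

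Presence in the Afos Dex lists was low in every class of GR strength in 7438. By class of GR rank in the list for both hormones, from weakest to strongest, the Dex list of replicate 1 held 1.62%, 2.31%, 4.10%, 9.74% and 12.6% of the gained shared sites. The kept GR-alone sites of the same classes were at 44.3%, 54.3%, 71.0%, 89.7% and 98.5%. Absence from or presence in the 7438 GR Dex list defined these groups, so this contrast largely restates the rule. Gained GR-alone sites, which were also absent from that list, were at 13.9%, 15.5%, 26%, 25% and 62.5%, the last among 8 sites. In the Dex+E2 list of replicate 1 the same classes held 57.6%, 67.0%, 82.9%, 95.4% and 98.9% of gained shared sites and 44.1%, 52.2%, 68.0%, 85.7% and 98.2% of kept GR-alone sites. In replicate 2 the gained shared sites in Dex+E2 ran from 29.8% to 98.9%. Thus the weakest gained shared sites were most often missed, and 86 of the 87 strongest were found in each Dex+E2 list. The 54 members with an Afos Dex call had a median GR rank of 66.1 and a median ER rank of 73.7.

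**Figure D4:**
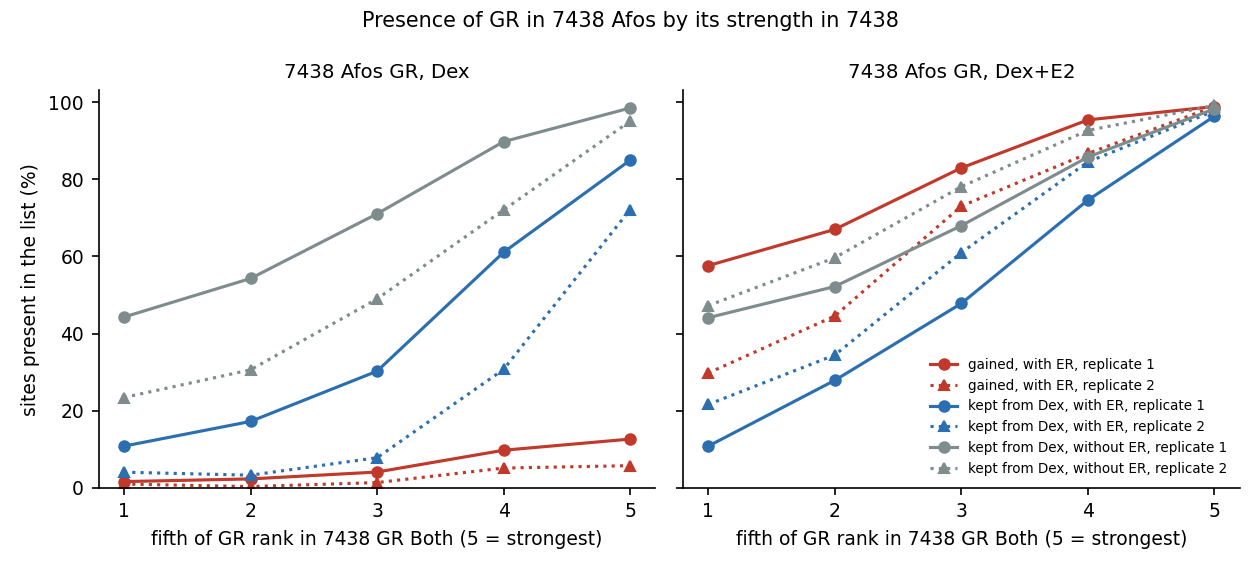
Share of the sites (percent) that the 7438 Afos GR lists for Dex (left) and Dex+E2 (right) held, by class of GR rank in the 7438 list named for both hormones (5 classes, 5 the strongest), for gained shared sites, kept shared sites and kept GR-alone sites. Circles and solid lines are replicate 1 and triangles and dotted lines replicate 2. Gained shared sites stay at 12.6% or less with Dex and reach 98.9% with Dex+E2.

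ER was called at most of the gained shared sites in 7438 Afos when E2 was present and at none when it was not. The ER E2 lists held 940 (79.2%) and 902 (76.0%), against 15.2% and 14.4% of all GR sites, and 878 sites (74.0%, against 13.6%) were in both. The ER Dex+E2 lists held 942 (79.4%) and 740 (62.3%), against 27% and 16.5%, and 738 (62.2%, against 16.2%) were in both. The 4 lists of untreated and Dex-treated cells, which held 35 to 61 sites each, had 0 of the 1187. The 4 lists with E2 held 74.2 ± 8.07% of the sites (SD, n = 4), a difference of 74.2 points from the 4 lists without. A two-sided exact permutation test of 4 lists against 4 gave p = 0.0286, the smallest it can give, and 0.114 adjusted over the 4 tests. This p adds nothing to the counts, because the lists without E2 were far shorter than the number of members and the members were chosen as ER E2 sites of 7438. With equal numbers of sites from each list, 35 as in the shortest, the difference was 2.17 points.

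Added Dex did not move this share of the gained shared sites beyond the spread between lists. The mean was 70.9 ± 12.03% with Dex+E2 and 77.6 ± 2.26% with E2 (SD, n = 2 each), a difference of -6.74 points with p = 1 in a two-sided exact permutation test that cannot go below 0.333. The direction rested on replicate 2 of the Dex+E2 lists, which was the shortest of the 4 with 2564 sites. Without it the difference was 1.77 points, with equal numbers of sites from each list 3.03 and with GR sites at or above the median density 1.09. In the same lists, ER E2 sites without GR were at 59.7% and 50.6% with E2 and at 36.5% and 15.5% with Dex+E2. Those with a GR Dex site were at 30.0% and 30.6% with E2 and at 38.1% and 27.7% with Dex+E2. Calls in the 7438 GR lists defined these groups, and the contrast between them was not tested.

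Presence in 7438 Afos by class of ER strength differed between the ER E2 and the ER Dex+E2 lists. In the ER E2 lists, ER sites with a gained GR site lay on either side of ER sites without GR. They lay above ER sites with a GR Dex site in every class. In the strongest 20% of ER sites the Afos ER E2 lists held 93.2% and 92.1% of those with a gained GR site, 90.7% and 90.5% of those without GR and 72.9% and 75.4% of those with a GR Dex site. In the weakest 20% the same shares were 49.3% and 37.0%, 39.4% and 27.9%, and 5.16% and 4.70%. In the middle class ER sites with a gained GR site were below those without GR, at 53.1% and 45.4% against 61.4% and 51.1%, with 16.5% and 14.3% for those with a GR Dex site. In the ER E2 lists the ER sites with a GR Dex site were thus the lowest in these 3 classes and both replicates. In the ER Dex+E2 lists, ER sites with a gained GR site were above both other groups in every class and both replicates. In the strongest 20% they were at 86.8% and 72.75%, against 67.2% and 41.3% without GR and 68.7% and 59.9% with a GR Dex site. In the weakest 20% the shares were 72.6% and 47.95%, 21.75% and 5.84%, and 20.2% and 10.8%. No test over samples was made of these differences, and calls in the 7438 lists for ER and GR defined the groups.

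In 7438 Afos, GR was mostly called at members where ER was called too. Of the 738 members in both ER Dex+E2 lists, GR was in both GR Dex+E2 lists at 598 (81.0%) and in neither at 27 (3.66%). Of the 243 in neither ER list, GR was in both at 19 (7.82%) and in neither at 203 (83.5%). The members without ER were also weaker in 7438, with a median GR rank of 22.9 against 48.2, and the part of strength in this difference was not tested. The other classes showed the same direction. With ER in both lists and in neither, GR was in both lists at 96.9% and 22.2% of gained GR-alone sites, at 98.8% and 46.0% of kept shared sites and at 99.7% and 62.3% of kept GR-alone sites.

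All 6 Afos lists for GR with Dex+E2, ER with E2 and ER with Dex+E2 held 558 of the members (47.0%, against 8.9% of all GR sites), and 136 (11.5%, against 19.9%) were in none of them. Most of the 6 are ER lists with E2 and the members were chosen as ER E2 sites of 7438, so this contrast largely restates the rule. In both GR Dex+E2 lists the members were at 57.5%, against 65.1% of all GR sites. Of the 558, 524 were in no Afos GR Dex list. The 558 had a median GR rank of 53.2 and ER rank of 89.2 in 7438, and the 136 had 16.9 and 61.1.

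The sites were spread over the genome, and few had a GR Dex site within 500 bp. They fell into 1175 regions when sites at most 500 bp apart were joined, 12 of them with 2 members, and each of the 19 autosomes held between 27 and 114. Chromosome 11 had 114, which is 16.4% of its GR sites in the list, and chromosome X had 4 (4.35%), against 12.5% of the whole list. Of their ER E2 sites these were 16.8% and 11.1%, against 16.6% over the whole ER E2 list. The nearest GR Dex site lay at a median distance of 16469 bp, and 94 members (7.92%) had one within 500 bp. The centres of the GR and the ER site lay at a median of 13 bp from each other, with 74.9% at most 25 bp apart. At kept shared sites the median was 20 bp and the share 59.3%. The 2 receptors were therefore called at nearly the same position at most members.

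Sites just inside and just outside the rule differed from each other by a few bases. The smallest overlap with an ER site among members was 3 bp, at chr11:98561893-98562043 (GR density 14.5), and then 11 bp, at chr1:93387036-93387186 (10.7). The members nearest to a GR Dex site were 2 bp from it, at chr18:65907234-65907384 (GR density 17.1), and 3 bp, at chr17:74297415-74297565 (27.6). Left out by the rule were chr2:60498068-60498218 (GR density 12.8) and chr9:58137020-58137170 (19.7), 7 and 9 bp from an ER site. Also left out were chr15:59559753-59559903 (GR density 21.1) and chr1:108297422-108297572 (13.0), which shared 2 and 12 bp with a GR Dex site. The genes near these sites and their sequences were not analysed here, because no mm9 genome or annotation was used.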

How the data were processed

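ChIP-seq site lists of 24 samples were used as the authors deposited them. Per the submitters' processing notes, mouse build mm9 and CASAVA 1.8 were used; aligner, peak caller and its settings: not given in the sources used here. Per the file headers, each deposited site carries its highest tag density, a signal value whose scaling is not stated, and a z-score, a score computed by the authors. The lowest values in the 7438 lists were 10 for density and 15 for the z-score. Overlap meant at least 1 bp on the same chromosome. Shares of sites were compared over lists by two-sided exact permutation tests in 4 comparisons; overlap counting and tests were checked on simulated data. The p-values were adjusted over these 4 tests (Benjamini-Hochberg). Named sites were the 8 members of highest GR rank, the 8 of highest ER rank, the 5 of highest rank in GR E2 and the 3 of lowest GR rank, with 2 sites on each side of each limit of the rule. The members and these rules were chosen with earlier results of these data known. The 15 samples without a list were not analysed here. Python 3.11.15, NumPy 2.4.6, pandas 2.3.3, SciPy 1.17.1 and matplotlib 3.10.9 were used.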

Additional observations from a re-analysis of the deposited data

How the results depend on the processing

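Of 109 values recomputed under an alternative, 86 kept their direction and their side of the threshold, or moved by less than their error. Many of the 86 were fixed in advance, so the count does not measure robustness. An exact permutation test of 2 lists against 2 cannot go below p = 0.333, so only its direction could change. For the differences between classes of sites, leaving out a list always moves the mean by less than the SD. Crossed numbers or no replicate block give the same mean gain by algebra. Reading the 7438 lists by label left 2 member sites and changed nearly everything: the GR differences in 7438 Afos became 0 points (Dex+E2 minus Dex) and 50 points (with Dex minus without, p = 0.0286 by the exact permutation test), both ER differences became 0, the GR gain relative to kept sites -7.84 points, the difference from gained GR-alone sites 21.4 points, the shares in the 7438 GR E2 and ER lists 50% each, and the median ranks 56.3 for GR and 21.3 for ER. Taking GR sites at or above the median density left 414 members, with median ranks of 67.1 for GR and 92.8 for ER, 13.3% in the 7438 GR E2 list and an ER difference (Dex+E2 minus E2) of 1.09 points. Equal numbers of GR sites from the 2 lists of 7438 gave a median ER rank of 81.2 and a difference from gained GR-alone sites of 12.7 points. An overlap of at least 75 bp gave 98.3% in the 7438 ER list for both hormones. Equal numbers of sites from each Afos list turned the ER difference to 3.03 and the GR difference with Dex minus without to -2.80 points.

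Leaving out each Afos list in turn gave 55.4 to 72.2 points for GR with Dex+E2 minus Dex, -15.3 to 1.77 for ER with Dex+E2 minus E2, 14.97 to 39.5 for GR with Dex minus without, 72.5 to 78.2 for ER with E2 minus without, 33.1 to 70.8 for the gain relative to kept sites and 2.26 to 8.82 for the difference from gained GR-alone sites. Where a lone list remained in a group, the spread of that group could not be estimated.

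Same-numbered Afos lists share a number only, since the labels name no common day. Across the 1187 members, the deviations of same-numbered lists correlated at -0.11 (GR, Dex and Dex+E2), 0.20 (ER, E2 and Dex+E2) and 0.10 (GR, E2 and Dex+E2). With the replicate block, the ER difference with E2 minus without stayed at 74.2 points and its exact p was 0.0556, the smallest that permutation within 2 blocks can give. The block left the other 3 tests above the 0.05 threshold, as without it. Crossed numbers, an alternative added after the data were examined, left the mean gain at 51.9 points, which carries no call. Holding the 7438 Afos sites to the limits of the 7438 lists, and counting 1 site for each region, also added after the data were examined, turned no direction. The unknown read depth limits every count of absent sites, since a weak site may be missed by a shorter list.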
